A study of Mus musculus with 44 samples.

Results

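The unfolded protein response and the integrated stress response were examined through 10 listed genes: Hspa5, Sdf2l1, Dnajb9, Herpud1 and Xbp1, which belong to the response of the endoplasmic reticulum (ER), and Atf4, Ddit3, Trib3, Chac1 and Asns, which form the branch around the transcription factor ATF4. The genes were taken from a list of known ER stress genes and ATF4 targets, a rule that uses no measured value. The list was, however, chosen with earlier results of these data known. All 10 were among the 38202 genes of the deposited tables. RNA of liver and skeletal muscle had been sequenced from 11 wild-type (WT) mice and 11 mice lacking Slc16a13 (KO), a gene for a monocarboxylate transporter of the plasma membrane, so that 44 libraries fell into 4 groups of 11. The knockout was constitutive and whole-body, made by CRISPR/Cas9 on the C57BL/6N background by removing the promoter and the leading exons, and the WT mice were littermates. All mice, controls included, were males that had been fed a high-fat diet for 15 weeks and were 20 weeks old, so no group on another diet enters these comparisons. By the study's methods an overnight fast preceded killing unless stated otherwise. The labels do not say which muscle was taken.

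Proteins that fail to fold in the ER draw the chaperone BiP, the product of Hspa5, away from the stress sensors IRE1, PERK and ATF6. IRE1 splices the Xbp1 transcript and thereby yields the active transcription factor XBP1, ATF6 is cleaved into a transcription factor, and both raise genes for chaperones and for ER-associated degradation (ERAD). PERK and other kinases phosphorylate the translation factor eIF2alpha, which lowers overall protein synthesis but favours translation of ATF4, the driver of genes for amino acid supply, redox balance and, through CHOP (Ddit3), cell death. Liver secretes large amounts of protein, and its ER stress genes are known to respond to feeding and fasting. Much of this regulation lies in splicing, cleavage and translation, which gene-level RNA counts do not record.

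The libraries held 20150712 to 35218243 counts, and among 220 pairs of libraries of the same group 0 were identical. Slc16a13 itself had 99 to 302 counts in WT livers and 0 to 8 in KO livers (log2 fold change of KO against WT -5.45, SE 0.298, adjusted p = 2.81e-11, edgeR quasi-likelihood test). Muscle had 4 to 22 counts in the WT group and 11 to 40 counts in that labelled KO (0.64, SE 0.216, adjusted p = 0.495), so the muscle counts go against the label, and every muscle direction below is that of the libraries labelled KO. Summed hepatocyte markers (6 genes) lay between 82950 and 137900 CPM (counts per 1000000 library counts, scaled by TMM factors) in liver and at 4.27 to 53.6 CPM in muscle, and summed muscle fibre markers (6 genes) lay between 114700 and 177500 CPM in muscle and at 0.531 to 54.8 CPM in liver. In 4 KO livers, those of animals 532, 602, 583 and 611, longer genes had relatively fewer counts than in the other livers. Each gene's log2 CPM was taken as its deviation from the mean over the 22 livers, and a line was fitted over log2 length. The slopes of these 4 were -0.54, -0.42, -0.25 and -0.08, while those of the other 18 livers were above 0. A slope of 0 thus stands for the average liver, not for an absence of length bias. For liver, the members' KO against WT differences are given with and without these libraries. In whole tissue, fewer cells of a type and less RNA per cell cannot be told apart, and p-values measure the spread between these mice.

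Promoter stretches of 4 of the 10 genes are shown because they hold the letters that the stress factors are known to recognise. RefSeq promoter windows (GRCm38.p6, 250 bases before to 50 after the start) were found for all 10 genes. The motifs searched on both strands were the ER stress element ERSE (CCAAT, 9 bases, CCACG), ERSE-II (ATTGG, 1 base, CCACG), the XBP1 core TGACGTGA or TGACGTGG, the ATF4 composite element CARE (TGATGNAAN) and the cAMP response element TGACGTCA. Capitals mark the matches, each line runs 5′ to 3′ on the gene's strand, and a match in these letters is no evidence of binding. No stretch beyond the start site is printed.
Hspa5, chr2:34771923-34772053, plus strand, XBP1 core and ERSE: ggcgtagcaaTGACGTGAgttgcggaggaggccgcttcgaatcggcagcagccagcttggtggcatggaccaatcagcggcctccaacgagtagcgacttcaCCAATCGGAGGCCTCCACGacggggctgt
Herpud1, chr8:94386306-94386397, plus strand, CARE (read on the other strand) and ERSE-II: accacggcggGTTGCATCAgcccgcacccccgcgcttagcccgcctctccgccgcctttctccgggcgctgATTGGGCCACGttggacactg
Chac1, chr2:119351038-119351066, plus strand, CARE (read on the other strand): cttccctgccGTTGCATCActcctgccag
Asns, chr6:7693214-7693242, minus strand, CARE: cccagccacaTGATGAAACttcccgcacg

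ERSE was present in 39 of 32851 mouse promoter windows (0.119%), ERSE-II in 12 (0.0365%), the XBP1 core TGACGTGA in 145 (0.441%) and CARE in 1299 (3.95%). Of the 5 ER genes Hspa5 held ERSE and Herpud1 held ERSE-II, and Trib3 held a CARE match downstream of its start site. Xbp1, Dnajb9, Sdf2l1, Atf4 and Ddit3 held none of the searched letters in this window. Among the 18 other ER chaperones and foldases, 16 had a promoter window and 7 of these held ERSE, while Dnajb11 held ERSE-II downstream of its start site. Because the messages of these chaperones are compared with Hspa5 below, the sites of all 7 are shown as read on the motif's strand, with the 2 fixed ends in capitals. Hsp90b1 held 2 sites.
Hsp90b1, chr10:86705638-86705656, gene on the minus strand: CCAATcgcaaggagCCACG
Hsp90b1, chr10:86705533-86705551, gene on the minus strand: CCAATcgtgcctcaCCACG
Calr, chr8:84847075-84847093, gene on the minus strand: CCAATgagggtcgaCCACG
Pdia6, chr12:17266491-17266509, gene on the plus strand: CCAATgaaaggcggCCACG
Creld2, chr15:88819520-88819538, gene on the plus strand: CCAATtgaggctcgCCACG
Canx, chr11:50325800-50325818, gene on the minus strand: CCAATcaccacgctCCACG
Dnajc3, chr14:118937827-118937845, gene on the plus strand: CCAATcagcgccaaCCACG
Ero1lb (Ero1b in RefSeq), chr13:12565682-12565700, gene on the plus strand: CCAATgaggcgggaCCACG

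Which of these genes were abundant was read per length, from the deposited RPKM values (reads per kilobase of gene and scaled to library size). In WT liver Herpud1, whose product recruits the ERAD machinery to the ER membrane, and Hspa5 led with means of 554.1 ± 268 and 551.7 ± 161 RPKM (SD, n = 11), which did not differ beyond their spread. Xbp1 followed at 103 ± 17.1 RPKM, then Atf4 at 45.6 ± 3.28 and Dnajb9, a co-chaperone of BiP, at 32.7 ± 10.7. Sdf2l1, an ER-resident chaperone cofactor, stood at 22.9 ± 11.1 RPKM and Ddit3 at 13.7 ± 3.19. The lowest were Trib3, a pseudokinase that dampens ATF4 and insulin signalling, at 4.19 ± 0.905, Chac1, an enzyme that degrades glutathione, at 2.23 ± 1.35, and Asns, asparagine synthetase, at 0.349 ± 0.23. The ranges of neighbours in this order overlapped, except between Xbp1 and its neighbours and between Ddit3 and Trib3.

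In WT muscle the order was another. Atf4 (104 ± 4.84 RPKM) and Herpud1 (96.5 ± 4.84) came first, followed by Chac1 (76.4 ± 21.2) and Hspa5 (61.1 ± 3.81), and each of these 4 overlapped in range with its neighbour. Xbp1 stood at 35.1 ± 2.12 RPKM, Dnajb9 at 18.8 ± 1.66 and Ddit3 at 9.24 ± 1.52. Sdf2l1 (0.893 ± 0.281), Asns (0.88 ± 0.34) and Trib3 (0.593 ± 0.174) were near 1 RPKM or lower, and their ranges overlapped. Within muscle Chac1 thus ranked among the abundant members, while in liver it ranked last but 1.

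**Figure D1:**
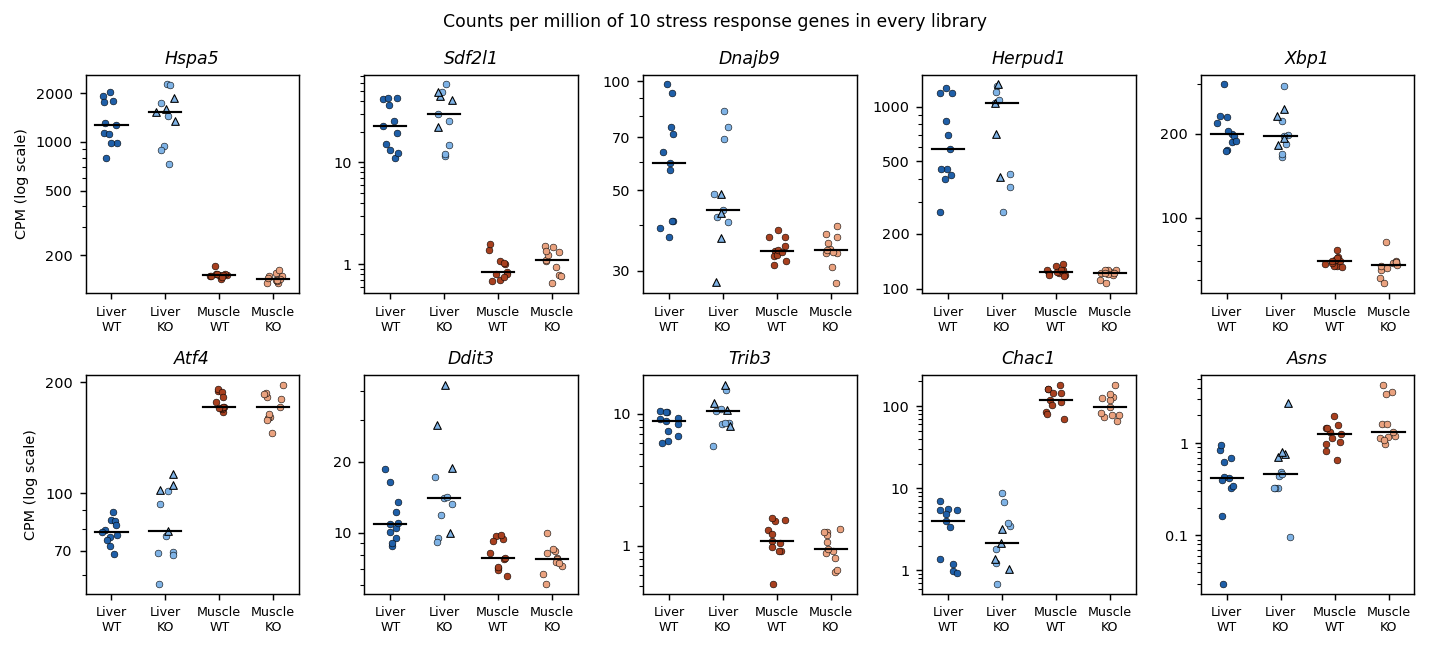
CPM (log scale) of each of the 10 genes in every library, with 11 mice in each of the 4 groups; bars are medians and triangles are the 4 KO livers with a length slope below 0. One WT liver with 0 counts of Asns is drawn at 0.03 CPM. Hspa5, Sdf2l1, Herpud1, Xbp1 and Trib3 were higher in every liver than in any muscle, and Atf4 and Chac1 lower. How many of all genes separated in this way was not counted.

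The comparison of liver with muscle, made within each genotype on CPM, asked how the 2 branches of the response differ between the tissues. All 10 genes passed the test in WT mice and all 10 in KO mice, against a background in which 91% of 13907 genes passed in WT and 86.7% of 13981 in KO, so that passing says little and the direction and size are what can be read. The liver libraries had more message of all 5 ER genes and of Trib3 and Ddit3, and less of Atf4, Chac1 and Asns. Over all genes tested the median difference was 0.00 in WT and 0.02 in KO. How many of all genes separated between the tissues without overlap was not counted, so lack of overlap is given below as description.

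Hspa5 had 791 CPM in the lowest, 1264 in the median and 2042 in the highest WT liver, against 143, 150 and 170 CPM in WT muscle. The groups did not overlap, and the log2 fold change was 3.19 (SE 0.142, adjusted p = 4.1e-17, edgeR) in WT and 3.40 (SE 0.167, adjusted p = 1.03e-15) in KO. Sdf2l1 differed most among the ER genes, with 11.1, 22.8 and 42.9 CPM in WT liver against 0.69, 0.847 and 1.59 CPM in WT muscle. Its log2 fold change was 4.70 (SE 0.288) in WT and 4.87 (SE 0.304) in KO, again with no overlap. Herpud1 was higher in liver by 2.51 (SE 0.222) in WT and 2.81 (SE 0.243) in KO, and Xbp1 by 1.58 (SE 0.0697) and 1.63 (SE 0.0876). Dnajb9 differed least of the 5, by 0.84 (SE 0.145) and 0.58 (SE 0.137), and its ranges overlapped in both genotypes, with 37.03 to 98.0 CPM in WT liver and 31 to 38.9 CPM in WT muscle.

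The ATF4 branch was split between the tissues. Chac1 had 0.923, 4.01 and 6.94 CPM in the lowest, median and highest WT liver but 70.2, 119 and 179 CPM in WT muscle, a log2 fold change of -5.09 (SE 0.302, adjusted p = 2.13e-14, edgeR) that was -5.08 (SE 0.369) in KO mice. No liver reached the lowest muscle. Atf4 was also lower in liver, with 68.4, 78.8 and 89.0 CPM against 166.0, 171 and 191 CPM in WT (-1.16, SE 0.0439; KO -0.99, SE 0.107), also without overlap. Asns was lower in liver too (-1.34, SE 0.278; KO -1.49, SE 0.405, and -2.42 without the 4 KO livers), at levels near 1 CPM and with overlapping ranges. In the other direction Trib3 had 6.06, 8.85 and 10.5 CPM in WT liver and 0.516, 1.10 and 1.62 CPM in WT muscle (2.87, SE 0.148; KO 3.39, SE 0.185). Ddit3 was modestly higher in liver (0.54, SE 0.121; KO 1.18, SE 0.226, and 0.73 without the 4 KO livers), with 8.73 to 18.6 CPM against 6.56 to 9.79 CPM in WT.

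**Figure D2:**
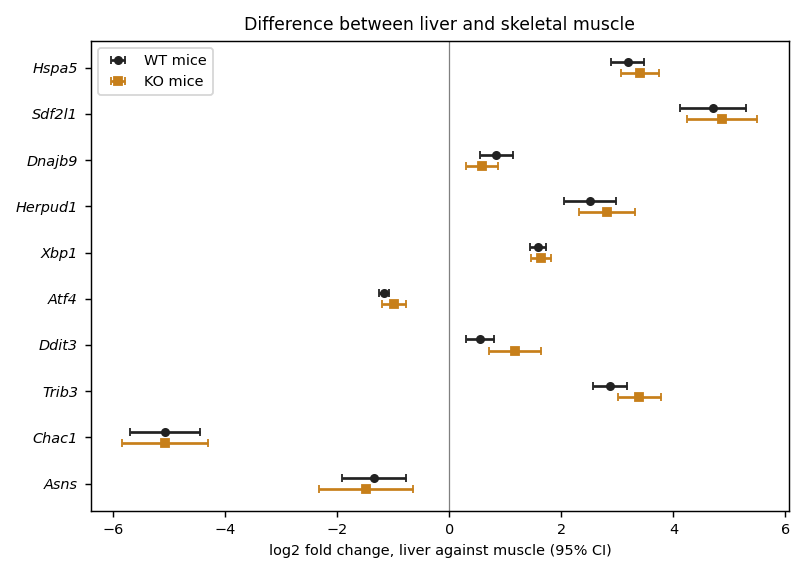
Log2 fold change of liver against muscle in WT mice (circles) and KO mice (squares) for the 10 genes, with 95% confidence intervals from the edgeR fit. Chac1 lies near -5 in both genotypes, Atf4 and Asns lie below 0, and the other 7 genes lie above 0.

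Other genes of the same pathways divided in a like manner. All 18 of the other ER chaperones and foldases were higher in WT liver (median log2 fold change 3.17; KO 3.36, 18 of 18), the largest being the disulfide isomerases Pdia5 (5.20, SE 0.0922) and Pdia4 (4.98, SE 0.138) and the oxidase Ero1lb (4.42, SE 0.14). Of 20 genes of ERAD and ER translocation, 16 were higher and 3 lower in WT liver, with Derl3 (6.62, SE 0.478), Edem1 (4.06, SE 0.129) and Sec24d (3.98, SE 0.103) differing most. Derl3 had too few reads in muscle to be tested there between genotypes, so the size of its difference rests on few muscle reads. Of the 9 sensors and processing proteases 8 were higher, led by the hepatic transcription factor gene Creb3l3 (13.46, SE 0.16), which was at 0 to 0.122 CPM in WT muscle, and by Eif2ak3, the gene for PERK (2.33, SE 0.12). Among 14 genes of the eIF2 kinases, eIF2, eIF2B and the eIF2 phosphatase, 4 were higher and 10 lower in WT liver. Ppp1r15a, which encodes the stress-induced subunit of that phosphatase, was lower (-2.27, SE 0.128), at 8.31 to 19 CPM in WT liver and 46.8 to 87.4 CPM in WT muscle.

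The further ATF4 targets were mixed. Of 12 tRNA synthetase genes 10 were lower and 2 higher in WT liver (median -0.79), with Eprs at -1.62 (SE 0.0376) and Tars at 0.99 (SE 0.0559). Of 13 genes of amino acid synthesis and one-carbon metabolism 9 were lower and 4 higher: Phgdh, the entry enzyme of serine synthesis, was at -5.70 (SE 0.316), while Cbs (11.67, SE 0.165) and Cth (7.34, SE 0.195), the enzymes of transsulfuration, were higher. Phgdh rests on few reads in WT liver, at 0 to 0.124 CPM. Of 9 amino acid transporters 7 could be tested, of which 4 were higher and 2 lower, with Slc1a4 at 3.26 (SE 0.212) and Slc1a5 at -4.59 (SE 0.198). Of 14 genes for transcription factors, signals and hormones 5 were higher and 5 lower in WT liver, with the hormone gene Fgf21 at 6.88 (SE 0.498), the gene of the stress cytokine GDF15 at 6.84 (SE 0.798) and Vldlr at -6.02 (SE 0.152). Fgf21, Gdf15 and Cbs had too few reads in muscle to be tested there between genotypes. The size of their tissue differences thus rests on few muscle reads. Of the mitochondrial folding genes 7 of 8 were higher, and of the cytosolic heat shock genes 5 of 11 were higher and 4 lower.

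The question put by the design was whether loss of Slc16a13 moved these genes. In liver 0 of the 10 members passed the edgeR test at an adjusted p under 0.05, where 3 of 13005 genes did (0.0231%). At an unadjusted p under 0.05 it was 1 of 10, against 12.9% of all genes tested. The median log2 fold change of the 10 was 0.19, with 7 above 0, and that of all genes was -0.01. DESeq2 and limma-voom also gave 0 members.

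Ddit3, the gene for the death-promoting factor CHOP, had the smallest p among the members. Its lowest, median and highest values were 8.73, 10.9 and 18.6 CPM in WT livers and 9.14, 14.04 and 42.5 CPM in KO livers, with 3 KO livers above every WT liver. The log2 fold change was 0.54 (95% confidence interval 0.0532 to 1.04, p = 0.0313, adjusted p = 0.382, edgeR). Those 3 livers were animals 532 (42.5 CPM), 602 (28.7 CPM) and 583 (18.8 CPM), all with a length slope below 0. Without the 4 such livers the value was 0.11 (adjusted p = 0.999), and with the slope as a covariate 0.05. Across the 11 KO livers Ddit3 was related to the slope (r = -0.88, permutation p = 0.00126; rho = -0.72, permutation p = 0.0161). After adjustment over the 80 relations of this kind these p were 0.101 and 0.434, with r = -0.45 once the 2 libraries farthest from the median slope were left out.

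The other members of the ATF4 branch had the following differences in liver. Trib3 had 6.06, 8.85 and 10.5 CPM in WT and 5.68, 10.5 and 16.6 CPM in KO, with 5 KO livers above every WT liver (0.31, interval -0.00672 to 0.619, adjusted p = 0.382), and 0.19 without the 4 livers. Atf4 spread more widely in KO (57.0 to 113 CPM) than in WT (68.4 to 89.0 CPM), with a difference of 0.11 (interval -0.0986 to 0.322) that turned to -0.04 without the 4 livers. Asns rested on 0 to 33 counts in WT and 2 to 67 counts in KO livers, and the 0 in 1 WT liver allows up to 3 counts, or 0.149 per 1000000 counts of that library, by counting error alone. Its difference was 0.50 (interval -0.394 to 1.40) and turned to -0.43 without the 4 livers, and the highest KO value, 2.75 CPM, was that of animal 583. Chac1 ranged from 0.923 to 6.94 CPM in WT and from 0.689 to 8.73 CPM in KO (-0.23, interval -1.10 to 0.652), and 0.06 without the 4 livers.

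The ER genes had intervals that all included 0. Hspa5 had 791, 1264 and 2042 CPM in WT livers and 733, 1520 and 2262 CPM in KO livers, ranges that covered nearly the same span (0.14, interval -0.268 to 0.542). Herpud1 had 263.8, 583 and 1266 CPM in WT and 262.6, 1048 and 1323 CPM in KO (0.24, interval -0.401 to 0.878). Sdf2l1 was at 0.34 (interval -0.298 to 0.987), Xbp1 at -0.01 (interval -0.219 to 0.193) and Dnajb9 at -0.27 (interval -0.68 to 0.132). Without the 4 livers these values were 0.10 for Hspa5, 0.20 for Herpud1, 0.16 for Sdf2l1, -0.03 for Xbp1 and -0.09 for Dnajb9. A change of Xbp1 message by more than about 0.22 on the log2 scale thus lay outside its interval, whereas changes of Herpud1 or Chac1 by more than 0.6 lay within theirs.

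**Figure D3:**
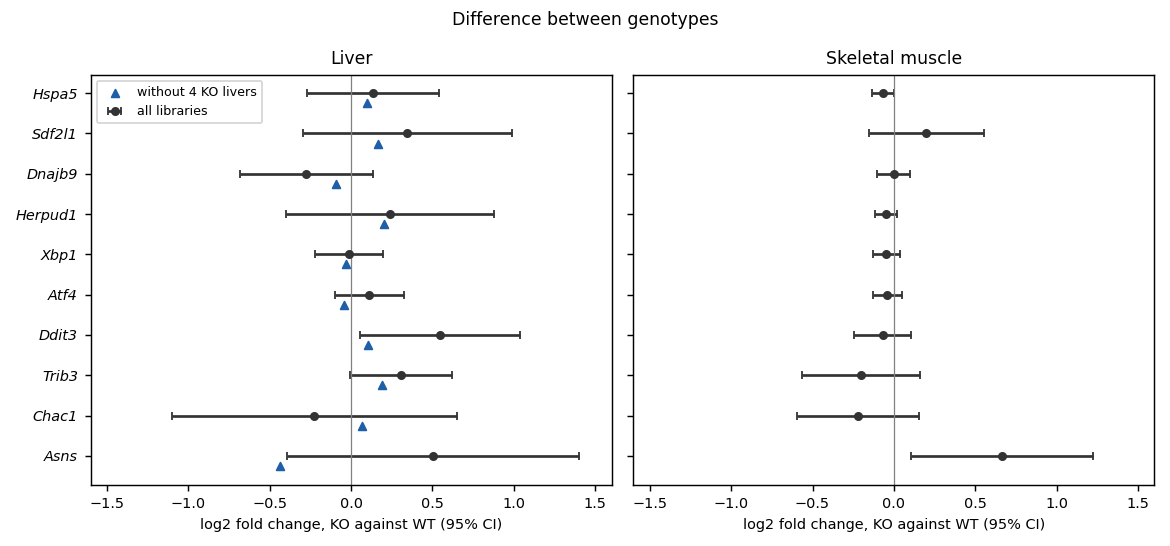
Log2 fold change of KO against WT in liver (left) and skeletal muscle (right) with 95% confidence intervals from the edgeR fits, 11 mice a group; triangles give the liver value without the 4 KO livers with a length slope below 0. In liver Ddit3 moves from 0.54 to 0.11 and Asns from 0.50 to -0.43, and in muscle the interval of Asns alone lies clear of 0.

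In muscle 0 of the 10 members passed, where 1 of 13266 genes did (0.00754%), and 1 of 10 had an unadjusted p under 0.05, against 8.64% of all genes. DESeq2 and limma-voom gave 0 members as well. The muscle intervals were narrow for the ER genes other than Sdf2l1: Hspa5 was at -0.07 (interval -0.135 to 0.00249), Herpud1 at -0.05 (interval -0.118 to 0.0207), Xbp1 at -0.05 (interval -0.13 to 0.0372) and Dnajb9 at 0.00 (interval -0.103 to 0.101). Atf4 (-0.04, interval -0.131 to 0.0485) and Ddit3 (-0.07, interval -0.243 to 0.107) were nearly as tightly bounded. Chac1, at 70.2, 119 and 179 CPM in WT and 65.6, 96.7 and 182 CPM in the libraries labelled KO, was at -0.22 (interval -0.593 to 0.153). Sdf2l1 (0.20, interval -0.155 to 0.555) and Trib3 (-0.20, interval -0.563 to 0.163) stood near 1 CPM in muscle.

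Asns had the smallest p of the members in muscle. It had 0.661, 1.26 and 1.96 CPM in WT and 0.991, 1.31 and 4.30 CPM in the libraries labelled KO, of which 3 lay above every WT library (0.66, interval 0.105 to 1.22, p = 0.0218, adjusted p = 0.522, edgeR). Those 3 were animals 561, 602 and 611. Summed adipocyte markers (5 genes) reached 818 CPM in animal 561 and 664 CPM in animal 611, but 165 CPM in animal 602, against 91.4 to 375 CPM in WT muscle. Across the 11 WT muscles Asns and the adipocyte sum had r = 0.88 (permutation p = 0.00041, adjusted over 360 relations 0.0504) and rho = 0.87 (permutation p = 0.00093, adjusted 0.112), and r = 0.78 without the 2 farthest. In the libraries labelled KO r was 0.72 (permutation p = 0.0194, adjusted 0.273) and rho 0.54 (permutation p = 0.0937, adjusted 0.498), and r fell to 0.05 without the 2 farthest. Whether fat in the muscle samples had a part in the Asns values was not tested. None of the 360 relations of the members to the marker sums of 9 cell types passed in both coefficients after adjustment.

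Whether the genotype difference itself differed between liver and muscle was tested as an interaction, and again 0 of the 10 members passed, with 1 of 14739 genes (0.00678%) doing so. At an unadjusted p under 0.05 there were 2 of 10, against 16.2% of all genes. These were Ddit3 (0.63, SE 0.262, adjusted p = 0.277) and Trib3 (0.52, SE 0.238, adjusted p = 0.292). Without the 4 KO livers they were 0.17 (SE 0.175, adjusted p = 0.998) and 0.39 (SE 0.24, adjusted p = 0.993), and on log2(RPKM + 1) 0.35 and 0.22. In the main fit the other members lay between -0.26 (Dnajb9, SE 0.205) and 0.30 (Herpud1, SE 0.319).

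The wider lists gave 0 genes past the edgeR threshold in liver, in muscle and in the interaction. At an unadjusted p under 0.05 stood 12.9% of all genes tested in liver and 8.64% in muscle. A list near these shares says little. The counts of the lists at that p follow for liver and muscle. In liver they were 4 of 18 ER chaperones, 5 of 14 eIF2 and eIF2B genes, 2 of 12 tRNA synthetases, 2 of 13 tested genes for transcription factors and hormones, 1 of 20 ERAD genes, 0 of 11 heat shock genes, and 1 each of 9 sensors, 8 mitochondrial folding genes, 10 tested amino acid synthesis genes and 7 tested transporters. Fkbp2 (0.51, SE 0.162) and Ppib (0.36, SE 0.127), both prolyl isomerases of the ER, had the smallest p of the chaperones. Eif2b5 (0.21, SE 0.0805) and Eif2b4 (0.28, SE 0.115), subunits of the exchange factor that phosphorylated eIF2 blocks, had the smallest of their list. Without the 4 KO livers these values were 0.11 (SE 0.0462) for Fkbp2, 0.06 (SE 0.0598) for Ppib, 0.05 (SE 0.0571) for Eif2b5 and 0.05 (SE 0.0704) for Eif2b4. Of the transcription factors and hormones Gdf15, which was lower in KO liver (-1.17, SE 0.489), and Eif4ebp1 (0.26, SE 0.111) had the smallest p, with all livers in the fit. In muscle the counts were 1 of 18 chaperones, 2 of 14 eIF2 and eIF2B genes, 3 of 19 tested ERAD genes, 3 of 11 heat shock genes, 2 of 8 mitochondrial folding genes, 1 of 8 tested sensors, 1 of 12 tested genes for transcription factors and hormones, and 0 of the tRNA synthetases, amino acid synthesis genes and transporters. Atf6b, a sister of the sensor gene Atf6, was at -0.17 (SE 0.0581). The near-identical inducible Hsp70 genes Hspa1b (-0.90, SE 0.305) and Hspa1a (-0.68, SE 0.271), between which reads can be misassigned, had the smallest p of the heat shock list.

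Of the 5 ER genes, Herpud1, Sdf2l1, Dnajb9 and Hspa5 varied widely among WT livers. Herpud1 ranged 4.80-fold among WT livers, from 263.8 to 1266 CPM, but from 117 to 137 CPM (1.18-fold) among the muscles of the same mice. Its SD on the log2 scale was 0.76 in WT liver, larger than that of 98.2% of genes, and 0.07 in WT muscle. Sdf2l1 (0.76), Dnajb9 (0.50) and Hspa5 (0.46) also lay above 98.2%, 94.6% and 93.3% of genes in WT liver. Xbp1 (0.23) lay above 69.4% and Atf4 (0.11) above 25.1%. In WT muscle Hspa5 (0.06), Xbp1 (0.06) and Herpud1 (0.07) lay above only 3.86%, 2.32% and 6.59% of genes, but Chac1 (0.46), Trib3 (0.44), Asns (0.42) and Sdf2l1 (0.36) lay above 95%, 94.3%, 93.6% and 90.7%, the last 3 of them near 1 CPM. Trib3 spread more in WT muscle than in WT liver (0.29). Chac1 (1.10) and Asns (1.05) had the widest spread of the members in WT liver, at counts of 24 to 162 and 0 to 33, where counting error adds to it.

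The spread in liver was compared with that in muscle within mice, by the absolute deviation of log2 CPM from the group's median in liver minus that in muscle, with an exact two-sided sign-flip permutation test on every gene, added after the values had been seen. Adjusted over all genes, 0 members and 0 other genes passed in either genotype, the smallest adjusted p being 0.301 in WT and 0.192 in KO. At an unadjusted p under 0.05, 4 of 10 members spread more in liver in WT mice, against 7.33% of 10327 genes: Herpud1 (10 of 11 mice, exact p = 0.00195), Hspa5 (10 of 11, exact p = 0.00293), Dnajb9 (10 of 11, exact p = 0.00391) and Xbp1 (8 of 11, exact p = 0.0273). In KO mice 6 of 10 did, against 20.2% of 10391 genes. There the larger spread in liver was general: the mean deviation was larger in liver for 83.7% of genes, and the median SD over genes was 0.33 in KO liver and 0.16 in KO muscle. Hspa5 in KO liver (0.54) lay above 82.7% of genes and Herpud1 (0.86) above 96.2%. In the 7 KO mice left without the 4 livers of negative slope, 55.9% of genes deviated more in liver, and 1 member had an unadjusted p under 0.05, Hspa5 (6 of 7 mice, exact p = 0.0312, adjusted 0.905), against 2.42% of 10359 genes.

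The ER genes moved together from liver to liver. In WT livers 8 of their 10 pairs passed by Pearson's r and also by Spearman's rho once p was adjusted over the group's 45 pairs (permutation tests, 100000 resamples), and the median r was 0.85. How many pairs of all genes would pass was not counted. With Hspa5, 5.08% of 11831 genes had r above 0.7 in WT livers. The closest pair was Hspa5 and Sdf2l1, with r = 0.97 (permutation p = 2e-05, adjusted 0.0009) and rho = 0.95 (permutation p = 6e-05, adjusted 0.0027), and r = 0.96 without the 2 livers farthest from the median of Hspa5. Hspa5 with Dnajb9 had r = 0.89 (permutation p = 0.0006, adjusted 0.009) and rho = 0.87 (permutation p = 0.00091, adjusted 0.0175), and r = 0.85 without the 2 farthest. Herpud1 with Sdf2l1 had r = 0.89 (permutation p = 0.00051, adjusted 0.009) and rho = 0.86 (permutation p = 0.00117, adjusted 0.0175), and r = 0.84 without the 2 farthest. The pairs that did not pass were Xbp1 with Herpud1 (r = 0.35, permutation p = 0.3, adjusted 0.479; rho = 0.47, permutation p = 0.144, adjusted 0.345) and Xbp1 with Dnajb9 (r = 0.48, permutation p = 0.13, adjusted 0.279; rho = 0.51, permutation p = 0.114, adjusted 0.321).

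Animals 567, 537 and 536 were among the highest WT livers for all of Hspa5 (2042, 1774 and 1788 CPM), Sdf2l1 (42.9, 42.3 and 41.7 CPM), Herpud1 (1195, 1192 and 1266 CPM) and Dnajb9 (93.01, 74.8 and 98.0 CPM). Animal 528 was lowest for Hspa5 (791 CPM), Sdf2l1 (11.1 CPM) and Herpud1 (263.8 CPM). Animal 516 broke the pattern, with 1929 CPM of Hspa5 but 583 CPM of Herpud1. Because no WT liver lay between 1304 and 1774 CPM of Hspa5, the 7 livers below that gap were also taken alone: their ER pairs had a median r of 0.66 (range 0.10 to 0.91), with Hspa5 and Sdf2l1 at 0.91 and Hspa5 and Herpud1 at 0.88. The 8 KO livers above the widest gap of that group, at 947 to 1352 CPM of Hspa5, had a median r of 0.49 (range 0.01 to 0.81). Both gaps were chosen after the values were seen. A narrower range of Hspa5 can by itself lower r, so these values are a description with no test.

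**Figure D4:**
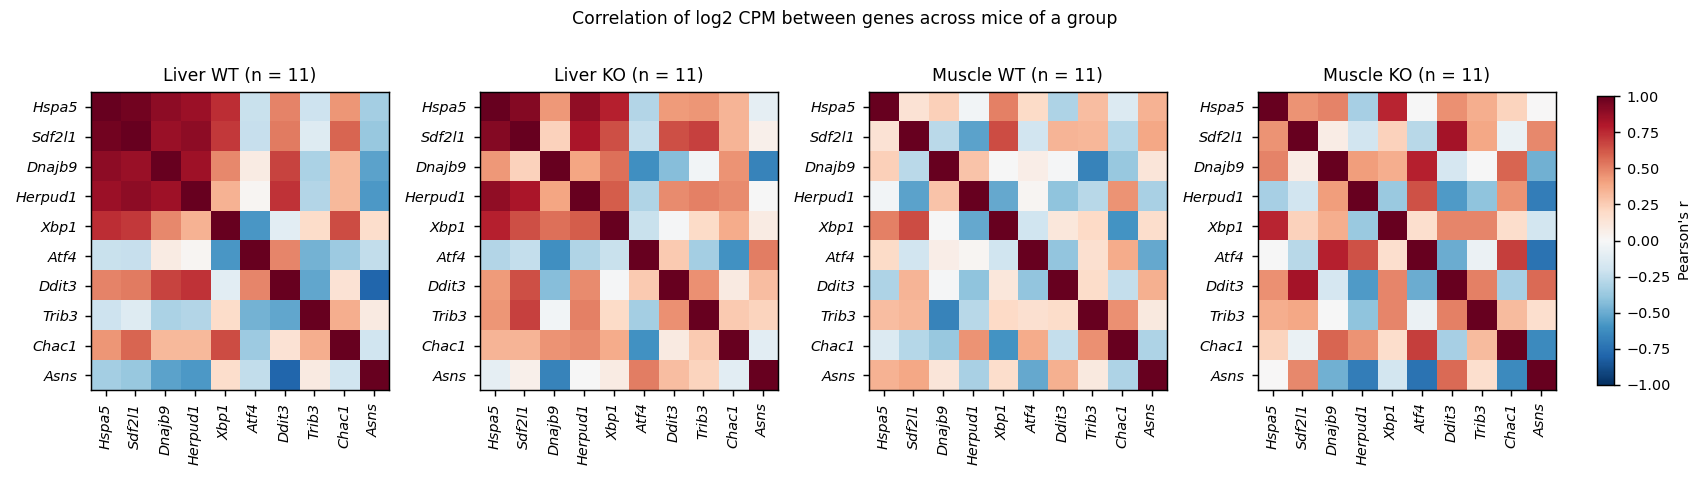
Pearson's r of log2 CPM between each pair of the 10 genes across the 11 mice of a group, drawn from blue (-1) to red (1). The block of the 5 ER genes is red in WT liver (median r 0.85), paler in KO liver (0.63), and absent in WT muscle (0.07).

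The members of the ATF4 branch did not move together in the same livers. Of their 10 pairs 0 passed in WT liver (median r -0.22), and of the 25 pairs between the branches 0 passed (median r 0.02). Atf4 and Hspa5 had r = -0.22 (permutation p = 0.513, adjusted 0.66) and rho = -0.25 (permutation p = 0.45, adjusted 0.654). Ddit3 and Asns had r = -0.79 (permutation p = 0.00409, adjusted 0.0263) with rho = -0.58 (permutation p = 0.0648, adjusted 0.243), and r = -0.20 without the 2 farthest livers, so that the relation rests on those samples. Ddit3 and Herpud1 came nearest among the mixed pairs (r = 0.72, permutation p = 0.0123, adjusted 0.0554; rho = 0.68, permutation p = 0.025, adjusted 0.125; r = 0.44 without the 2 farthest).

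In KO livers 1 ER pair passed, Hspa5 with Sdf2l1 (r = 0.92, permutation p = 0.00013, adjusted 0.00585; rho = 0.93, permutation p = 0.00019, adjusted 0.00855; r = 0.92 without the 2 farthest). The median r of the 10 ER pairs was 0.63, with Dnajb9 and Sdf2l1 lowest at 0.23. In the 7 KO livers with a slope above 0 the median was 0.86 and the range 0.75 to 0.95, but 0 pairs passed in both coefficients at that number of mice by the exact permutation test. In those 7 livers 12.6% of 11831 genes had r above 0.7 with Hspa5. Dnajb9 was low for its Hspa5 in the remaining livers: animal 532 had 27.9 CPM of Dnajb9 at 1598 CPM of Hspa5, and animal 583 had 36.9 CPM at 1855 CPM. The difference in correlation between WT and KO livers was not tested.

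In muscle 0 pairs of any kind passed in either genotype, and the median r of the ER pairs was 0.07 in WT and 0.30 in the libraries labelled KO. A member's level in liver was also compared with its level in the muscle of the same mouse, in 20 relations (10 members in both genotypes), of which 0 passed. The strongest was Atf4 in KO mice (r = -0.73, permutation p = 0.0126, adjusted 0.152; rho = -0.62, permutation p = 0.0483, adjusted 0.3; r = -0.78 without the 2 farthest).

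**Figure D5:**
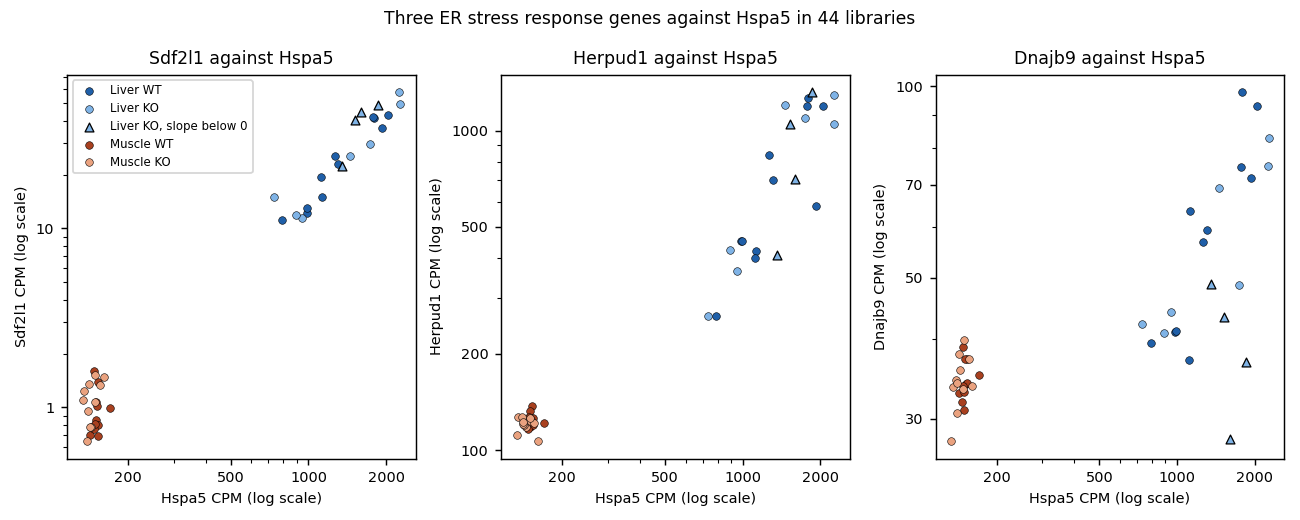
Sdf2l1, Herpud1 and Dnajb9 against Hspa5 (CPM, log scales), 1 point per library, with triangles for the 4 KO livers with a length slope below 0. Sdf2l1 rises with Hspa5 in livers of both genotypes (r = 0.97 in WT, 0.92 in KO), KO livers 532 and 583 lie low for Dnajb9, and muscles form a compact cloud.

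Genes outside the list that tracked the ER members were sought over the 11 WT livers, with the r in the KO livers as values the search had not used. The search picks the highest of 11831 genes, so the WT values are a description with no test. The 3 genes most like Hspa5 were Manf (r = 0.99 in WT, 0.93 in KO), a secreted ER stress factor, Magt1 (0.99 and 0.45) and Hyou1 (0.99 and 0.87), an ER chaperone of the Hsp70 family. For Sdf2l1 they were Manf (0.99 and 0.94), Creld2 (0.98 and 0.98), an ER-resident isomerase, and Hyou1 (0.98 and 0.68). For Herpud1 they were Foxa3, a hepatic transcription factor (0.97 and 0.88), Tent5c (0.97 and 0.75) and Pde4dip (0.96 and 0.22), and for Dnajb9 Atp13a3 (0.96 and 0.73), Nfxl1 (0.96 and 0.94) and Piga (0.96 and 0.93). For Xbp1 they were Tmed3 (0.94 and 0.41), Gfpt1 (0.92 and 0.34) and Derl3 (0.91 and 0.68).

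The genes most like the members of the ATF4 branch in WT liver had the following r in WT and KO liver. Those of Atf4 were Trir (0.93 and 0.56), Slc35e2 (0.92 and -0.81) and Wrnip1 (0.90 and 0.60), and those of Ddit3 were Tmem63b (0.92 and -0.10), Sdc2 (0.91 and -0.56) and Hecw2 (0.90 and -0.48). Chac1 was led by Ung (0.87 and 0.26), Irf2 (0.83 and 0.72) and Wtip (0.82 and -0.16), Trib3 by Nme2 (0.94 and 0.50), Rasa4 (0.91 and -0.12) and Fam206a (0.89 and 0.05), and Asns by Fbxo4 (0.95 and 0.49), Sptlc1 (0.93 and 0.10) and Tonsl (0.92 and 0.13). Of these 15 genes, 1 (Irf2) exceeded r = 0.7 in KO livers. In WT muscle the genes most like Asns were Hpgd (0.95 in WT, 0.76 in the libraries labelled KO), Scd2 (0.95 and 0.60) and Arxes2 (0.95 and 0.82), and those most like Herpud1 were Ufl1 (0.90 and 0.91), Ttn (0.89 and 0.65) and Tmcc1 (0.89 and 0.85). The muscle genes of the other members repeated less well. Their r in the libraries labelled KO ran from -0.54 (Fam185a, picked for Sdf2l1) to 0.66 (Loxl1, picked for Ddit3).

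Across whole pathway lists, 11 of the 18 other ER chaperones had r above 0.7 with Hspa5 in both WT and KO livers, against 0.811% of 11831 genes, and the list's median r was 0.92 in WT and 0.77 in KO. Of the 7 chaperones whose ERSE sites are printed above 5 were among them: Hsp90b1 (0.96 in WT, 0.94 in KO), Creld2 (0.98 and 0.97), Calr (0.87 and 0.83), Pdia6 (0.92 and 0.82) and Ero1lb (0.90 and 0.72). The other 2, Canx (0.92 and 0.44) and Dnajc3 (0.95 and 0.46), were not. Of the 9 with a promoter window but no ERSE 4 were among them, and both chaperones with no window. Dnajb11 (0.98 and 0.96), which held ERSE-II, is counted here as having no ERSE. Pdia5 (0.14 and 0.13) and Fkbp2 (0.24 and 0.29) did not follow Hspa5. The ERAD and translocation list had a median of 0.87 in WT and 0.45 in KO, with 4 of 19 above 0.7 in both, Syvn1 (0.99 and 0.91) and Sec61a1 (0.89 and 0.90) among them. The cytosolic heat shock genes had 0.67 and 0.76, with 4 of 10 above 0.7 in both, Hspa8 (0.87 and 0.79) and Hsph1 (0.85 and 0.86) among them. For the tRNA synthetases the median was 0.17 and 0.45, with 0 of 12 above 0.7 in both. In the 7 KO livers with a slope above 0, r above 0.7 with Hspa5 was found for 12.6% of 11831 genes, against 2.4% in all 11 KO livers. There the medians were 0.93 for the chaperones (16 of 18 above 0.7), 0.88 for ERAD and translocation (12 of 19), 0.88 for heat shock (8 of 10) and 0.77 for the tRNA synthetases (7 of 12). In muscle the chaperone list had a median r with Hspa5 of 0.34 in WT and 0.50 in the libraries labelled KO, with 2 of 18 above 0.7 in both, Hsp90b1 (0.75 and 0.86) and Pdia6 (0.75 and 0.73). All these genes were measured in the same libraries, so their values share each library's depth and composition; of the 80 relations of the 10 members to total count and to the length slope in the 4 groups, 0 passed after adjustment, the smallest adjusted permutation p being 0.101.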

How the data were processed

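Counts per gene and RPKM values were deposited by the authors for 44 libraries. Per the labels and the study's methods, poly(A) RNA was sequenced as 85 bp single-end reads with a strand-specific kit; the aligner, annotation and genome build are not given in the sources used here, and the submitters' processing notes name limma. The RPKM values deposited by the authors were used for levels per gene length and as an alternative input. Groups came from the labels (tissue and genotype). The 10 members, the pathway lists and the markers were chosen with earlier results of these data known.

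Raw counts were filtered (filterByExpr), TMM-normalised and tested with edgeR 4.0.16 (quasi-likelihood F test, R 4.3.3), fitted per tissue, per genotype or, for the interaction, over all 44 libraries, with Benjamini-Hochberg adjustment over all genes tested and a threshold of 0.05. CPM used TMM factors over the 44 libraries, and log2 CPM a prior count of 2. The steps were tested on simulated counts. Correlations used two-sided permutation tests with 100000 resamples (numpy 2.4.6). All 10 members were named in the comparisons of tissues and of genotypes, but not all in the interaction. From other lists, where no gene passed, at most 2 per list were named, those with the smallest unadjusted p. Between tissues at most 3 per list were named, from the 3 largest absolute log2 fold changes in WT mice. Ppp1r15b was added because its direction was opposite to that of Ppp1r15a. Per member the 3 genes with the highest r were named in liver, and in muscle for Asns and Herpud1 alone. Other list genes given for their r with Hspa5 or for levels were chosen after their values were seen. Animal numbers tie liver and muscle of the same mouse: deviations from group means had a mean r of 0.112 (WT) and 0.115 (KO) within mice and -0.01 between mice in both genotypes. Within mice r was above 0.1 for 6 of 11 WT and 5 of 11 KO mice, so not every pair shows the tie. Alternatives were DESeq2 1.42.0, limma-voom 3.58.1, no TMM factors (library size alone), a minimum of 10 counts per library, no filter, log2(RPKM + 0.1) and log2(RPKM + 1), the length slope as covariate, sample quality weights, leaving out the 4 KO livers or each mouse, and a block for the mouse. Totals of at least 20150712 counts limit Asns, Trib3 and Sdf2l1 most, where they lie near 1 CPM.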

Additional observations from a re-analysis of the deposited data

Results flagged for a closer look

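The difference between KO and WT in Slc16a13 itself differed between the tissues, by -6.08 on the log2 scale (SE 0.376, adjusted p = 5.92e-16, edgeR interaction test): counts fell in liver and did not in muscle, where they were low in both groups. No member of the stress response list was flagged.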

How the results depend on the processing

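In each of the tissue comparisons all 10 members passed under every alternative run except the minimum of 10 counts, where Asns could not be tested and the other 9 passed, and in each genotype comparison and in the interaction 0 passed under every alternative run. With the mouse as a replicate block (paired by animal), 12674 genes passed between tissues in WT, 12107 in KO and 1 in the interaction, with 10, 10 and 0 members, and the block changed no call of a member. Leaving out 1 mouse at a time left 3 genes in liver, 1 in muscle, 12567 to 12690 between tissues in WT and 11950 to 12191 in KO. Library size alone shifted the median of all genes by -0.122 between tissues in KO, less than any member's difference there.

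Genes passing in liver numbered 6 with DESeq2 and 1 with at least 10 counts; in muscle 0 with limma-voom, no filter, at least 10 counts, both RPKM scales, the slope covariate and quality weights; in the interaction 44 with DESeq2, 3 with library size alone, 0 with at least 10 counts, 2 with both RPKM scales and 2 without the 4 livers. Without these livers 0 pairs passed in KO liver. The cause was not tested.

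Signs turned for the values below, none of which passed. Not all of them were near 0 in the main fit. In liver Asns was at 0.50 and Chac1 at -0.23 there, and in the interaction Atf4 and Sdf2l1 were at 0.16. Leaving out 1 mouse gave Xbp1 -0.0763 to 0.0493 in liver and Dnajb9 -0.025 to 0.0248 in muscle. Liver values became 0.000825 for Xbp1 (DESeq2), -0.0428 for Atf4, -0.434 for Asns and 0.0648 for Chac1 (without the 4 livers), -0.0111 and -0.0705 for Atf4 and Asns (slope), and -0.0112 and -0.0441 (weights). Muscle values of Dnajb9 became 0.00014 (DESeq2), 0.0142 (library size), 0.000918 (10 counts), 0.0134 and 0.0128 (RPKM) and 0.000602 (slope), and Atf4 0.00323 (slope). In the interaction Chac1 became -0.0553 (limma-voom), -0.0817 (library size), -0.0062 (no filter), -0.00485 (10 counts), -0.124 and -0.00907 (RPKM) and -0.064 (block), Xbp1 -0.0454 (library size), -0.0528 and -0.053 (RPKM), and, without the 4 livers, Atf4 -0.00191 and Sdf2l1 -0.0365.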
